A study of Mus musculus with 12 samples.

Results

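The 51 cell cycle phase genes described here were chosen by name and comprise cyclins and their kinases, inhibitors of those kinases, pocket proteins and E2F factors, the machinery that licenses and copies DNA, enzymes that supply nucleotides, and genes of G2 and mitosis. They are 51 of the 57010 genes listed in the table, and all 51 were among the 16502 genes that passed a filter on low counts and were tested. By role they were grouped into 8 G1 cyclins and kinases, 9 inhibitors, pocket proteins and E2F factors, 11 genes of origin licensing and replication, 3 genes of nucleotide supply and 20 genes of G2 and mitosis. The grouping is by the best known role, although several members act in more than 1 phase.

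RNA-Seq was performed on NE-4C cells, a neural progenitor line from embryonic mouse brain that was immortalized by loss of p53, so that every group lacks p53. WT cells and Faf2 knockout (KO) cells were each profiled untreated (WT NO and KO NO, day 0) and after induction with all-trans retinoic acid (RA), a signal that drives these cells toward neurons (WT RA and KO RA, 1 µM for 24 h, then basal medium, collected on day 3). Each of the 4 groups has 3 libraries, from 3 passages, so p-values measure the spread between passages of 1 line. FAF2 is an adaptor of the endoplasmic reticulum membrane that helps to extract misfolded proteins. The KO cells are a line grown from a colony in which CRISPR/Cas9 removed exon 4 of Faf2, and an effect of the gene cannot be told apart from other differences of that line. RA-treated and untreated cells also differ in days of culture, and the treatment and the days cannot be told apart.

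In G1, D-type cyclins activate CDK4 and CDK6, and E-type cyclins activate CDK2, which release E2F factors from the pocket proteins RB1 and RBL1. CDK inhibitors such as p16, p15, p18 and p27 hold this step back. E2F factors switch on genes that load MCM helicases on origins and make nucleotides for S phase, and later FOXM1, B-MYB and NF-Y drive the genes that build the spindle and separate chromosomes. Neural progenitors lengthen G1 and leave the cycle when they become neurons, and p27 rises in many cells that do so.

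Levels are given as CPM, counts scaled to a common library total after TMM scaling (a factor per library that removes differences in composition). The deposited counts were read as corrected for transcript length, and levels of different genes are set side by side on that reading. It rests on the values, since no source used here states it: over 3851 genes above 0 in only 1 library, the value fell with transcript length (Spearman correlation −0.75, a description across genes). Total counts per library ranged from 17370069 to 30738717. One library stood apart: KO RA replicate 3 (KO RA 3) had a TMM factor of 0.394, against 0.872 to 1.28 in the other 11 libraries. CPM divide by this factor, so values of KO RA 3 stand higher than with its library total alone. Statements on where KO RA 3 lies refer to CPM after TMM scaling. In KO RA 3, 21 members were higher and 30 were lower than the mean of KO RA 1 and KO RA 2, by −2.13 to 3.70 on the log2 scale, with a median absolute difference of 0.94 over the members and 0.99 over all genes tested. Because all groups share 1 estimate of the spread, this library touches every comparison, and results are therefore given with all 12 libraries and without KO RA 3. Faf2, the targeted gene, was at 50.01, 38.8 and 35.98 CPM in WT NO, 35.1, 37.9 and 49.1 in WT RA, 21.03, 21.7 and 25.4 in KO NO and 36.1, 34.3 and 18.7 in KO RA. The KO RA values reach into the WT RA range, and a gene-level count includes the exons that the deletion leaves, so it does not check the deletion itself. Markers of neural progenitors (8 genes) summed to 467 to 499 CPM in WT NO and 371 to 417 in KO NO, while markers of astroglia (6 genes) summed to 9.07 to 19.1 CPM in any group, with Aqp4 and S100b at 3 counts or fewer throughout.

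**Figure D1:**
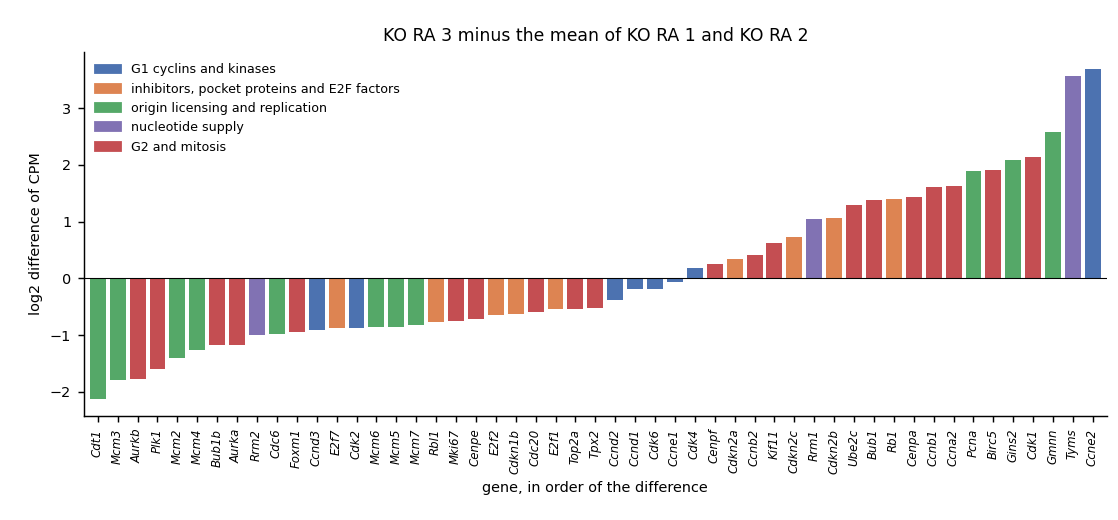
Log2 difference of CPM between KO RA 3 and the mean of KO RA 1 and KO RA 2 for each of the 51 genes, in order and coloured by role. Bars run from −2.13 for Cdt1 to 3.70 for Ccne2, and 21 of the 51 bars point up.

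Deviations of the members in KO RA 3 were related to transcript composition, as a description across genes, which are not independent. The Spearman correlation of the deviation with GC content was −0.34 over the 51 members and −0.33 over all genes with an annotated transcript. With transcript length it was −0.17 over the members and −0.42 over all genes. The 21 members higher in this library had a median transcript GC content of 47.3% and the 30 lower members one of 50.2%. Over the members, values of like size arose in other libraries too, with 0.37 for GC content in KO NO 1 and 0.44 for length in KO NO 3. Over all genes, the libraries outside KO RA had values from −0.22 to 0.21 for GC content and from −0.16 to 0.23 for length. The part of these properties in the results below was not tested.

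The promoters of the members were searched for motifs through which phase genes are known to be controlled, and a few stretches are shown that hold them close to the start of the gene. Promoters were taken as 250 bases before to 50 bases after the start of the canonical transcript (mouse genome GRCm39, GENCODE annotation), and all 51 members had one. Matches were searched on both strands for 3 motifs. These were the cell cycle homology region (CHR, TTTGAA), the NF-Y box (CCAAT) and an E2F site (TTT, then 2 bases that are each G or C, then CGC). At least 1 of the 3 was found in 37 of the 51 promoters and none in 14, among them those of Aurka, Birc5, Foxm1 and Pcna. A CHR was found in 9 of the 20 G2 and mitosis promoters (45%), against 17.05% of 21664 promoters of protein-coding genes. An NF-Y box was found in 15 of those 20 (75%, against 39.97%), and both in the same 9 of 20 (45%, against 7.44%). An E2F site was found in 7 of the 11 licensing and replication promoters (63.6%, against 2.83%), but in 1 of the 20 G2 and mitosis promoters. With only the 250 bases before the start, a CHR was in 5 of the 20 G2 and mitosis promoters (25%, against 15.5%), an NF-Y box in 9 (45%, against 36.5%), both in 4 (20%, against 6.05%) and an E2F site in 4 of the 11 licensing promoters (36.4%, against 2.28%). A match is a description of the letters and not a site of binding, and the absence of a match says only that these letters are not in the window.

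The 150 bases before the start are printed for 2 MCM helicase genes with E2F sites (Mcm6, Mcm4) and for 4 genes of G2 and mitosis (Cdk1, Ccnb2, Aurkb, Top2a), 5′ to 3′ on the gene's strand, with matches in capitals. Runs of ATTGG or CCAAT are NF-Y boxes, runs of TTTGAA or TTCAAA are CHR matches, longer runs with GCG or CGC are E2F matches, and capitals at an end belong to a match that crosses it.
Mcm6, chr1:128287453-128287602, minus strand: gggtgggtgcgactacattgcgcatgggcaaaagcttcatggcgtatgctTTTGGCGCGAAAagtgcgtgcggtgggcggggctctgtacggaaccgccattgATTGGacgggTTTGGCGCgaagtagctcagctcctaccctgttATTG
Mcm4, chr16:15455265-15455414, minus strand: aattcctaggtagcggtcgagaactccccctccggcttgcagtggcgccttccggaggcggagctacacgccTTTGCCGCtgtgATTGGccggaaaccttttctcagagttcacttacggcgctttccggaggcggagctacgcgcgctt
Cdk1, chr10:69188769-69188918, minus strand: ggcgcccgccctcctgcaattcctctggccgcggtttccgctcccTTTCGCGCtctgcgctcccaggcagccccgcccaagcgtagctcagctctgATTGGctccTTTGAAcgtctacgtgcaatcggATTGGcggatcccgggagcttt
Ccnb2, chr9:70328875-70329024, minus strand: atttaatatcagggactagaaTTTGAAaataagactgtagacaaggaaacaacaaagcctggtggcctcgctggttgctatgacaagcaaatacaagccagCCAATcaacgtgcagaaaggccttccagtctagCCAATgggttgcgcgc
Aurkb, chr11:68936317-68936466, plus strand: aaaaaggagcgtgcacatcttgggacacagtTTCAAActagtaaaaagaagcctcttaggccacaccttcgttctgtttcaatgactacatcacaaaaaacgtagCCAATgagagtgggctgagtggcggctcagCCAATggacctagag
Top2a, chr11:98915042-98915191, minus strand: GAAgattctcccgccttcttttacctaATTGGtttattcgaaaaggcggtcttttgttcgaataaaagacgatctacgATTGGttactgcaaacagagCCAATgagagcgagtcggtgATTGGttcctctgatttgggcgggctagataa
The Mcm6 stretch holds overlapping E2F matches starting 100 and 96 bases before the start and another at 37 bases. In Cdk1, a CHR at 45 bases before the start lies between NF-Y boxes at 54 and 22 bases. In Top2a, NF-Y boxes start 123, 72, 52 and 32 bases before the start, and the CHR at its left end starts 153 bases before it.

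**Figure D2:**
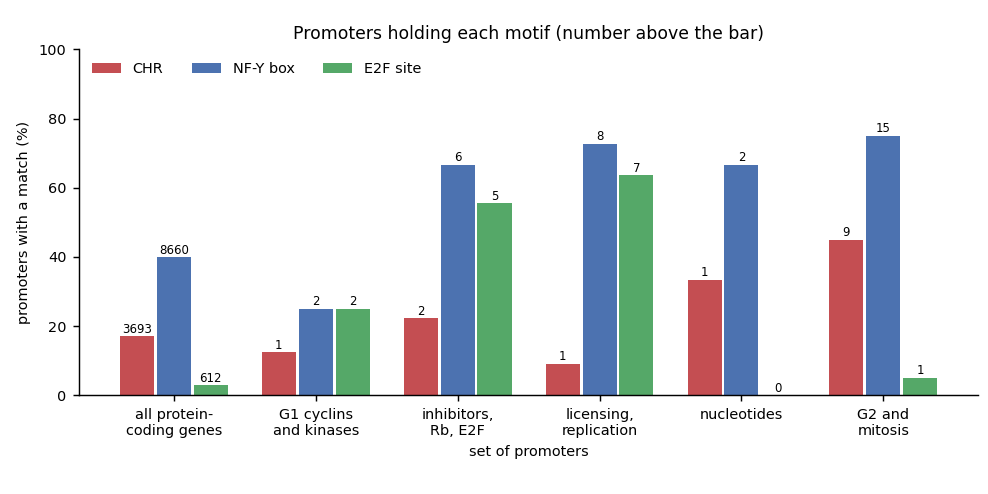
Percentage of promoters (250 bases before to 50 after the start) that hold each motif, for 21664 protein-coding genes and for the members by role, with the number of promoters above each bar. The CHR bar is highest in G2 and mitosis (9 of 20) and the E2F bar in licensing and replication (7 of 11).

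In untreated WT cells the members spanned a wide range of levels. The highest were Cdk4, the kinase partner of D-type cyclins, at 703 ± 139 CPM (SD, n = 3), and Top2a, the topoisomerase that untangles chromosomes, at 415 ± 33.5. They were followed by Ube2c (326 ± 30.3), Pcna (290.5 ± 34.7) and Cdk1 (288 ± 79.3), which did not differ beyond their spread. The MCM helicase genes stood between 78.4 ± 1.95 CPM for Mcm4 and 225 ± 19.3 for Mcm7. At the low end were Cdkn2b (1.55 ± 0.487), E2f2 (1.54 ± 0.329), Rb1 (0.78 ± 0.158) and Cdkn2c (0.373 ± 0.167). Rb1 had 11 to 28 counts in any library and overlaps Rcbtb2 and Lpar6 on the other strand, so its values are uncertain, and Cdkn2c had 3 to 23 counts. E2f2 had 8 to 54 counts, and no other member fell under 32 counts in any library. On the reading as corrected for transcript length, these counts are scaled values and not numbers of reads. Pcna shares sequence with the pseudogene Pcna-ps2, which was listed at up to 85.8 CPM, and how reads were split between them was not tested. Among members whose changes are described below, genes on the other strand overlap Ccnd1 (LTO1, up to 14.7 CPM), Cdkn2b (Gm12610, 2.93), Gins2 (Gse1, 23.7), Cdk1 (Ank3, 26.6), Ccne1 (1600014C10Rik, 6.53), Pcna (AV099323, 21.4), Ccnd3 (Bysl, 43.2), Ccne2 (Ints8, 58.1), Mcm7 (Cops6, 201), Ccna2 (Exosc9, 157), Foxm1 (Rhno1, 90.3), Aurka (Cstf1, 58.1) and Cdc20 (Elovl1, 28.6). Whether the counting used strand is not given in the sources used here, and without it reads of such a pair cannot be told apart.

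**Figure D3:**
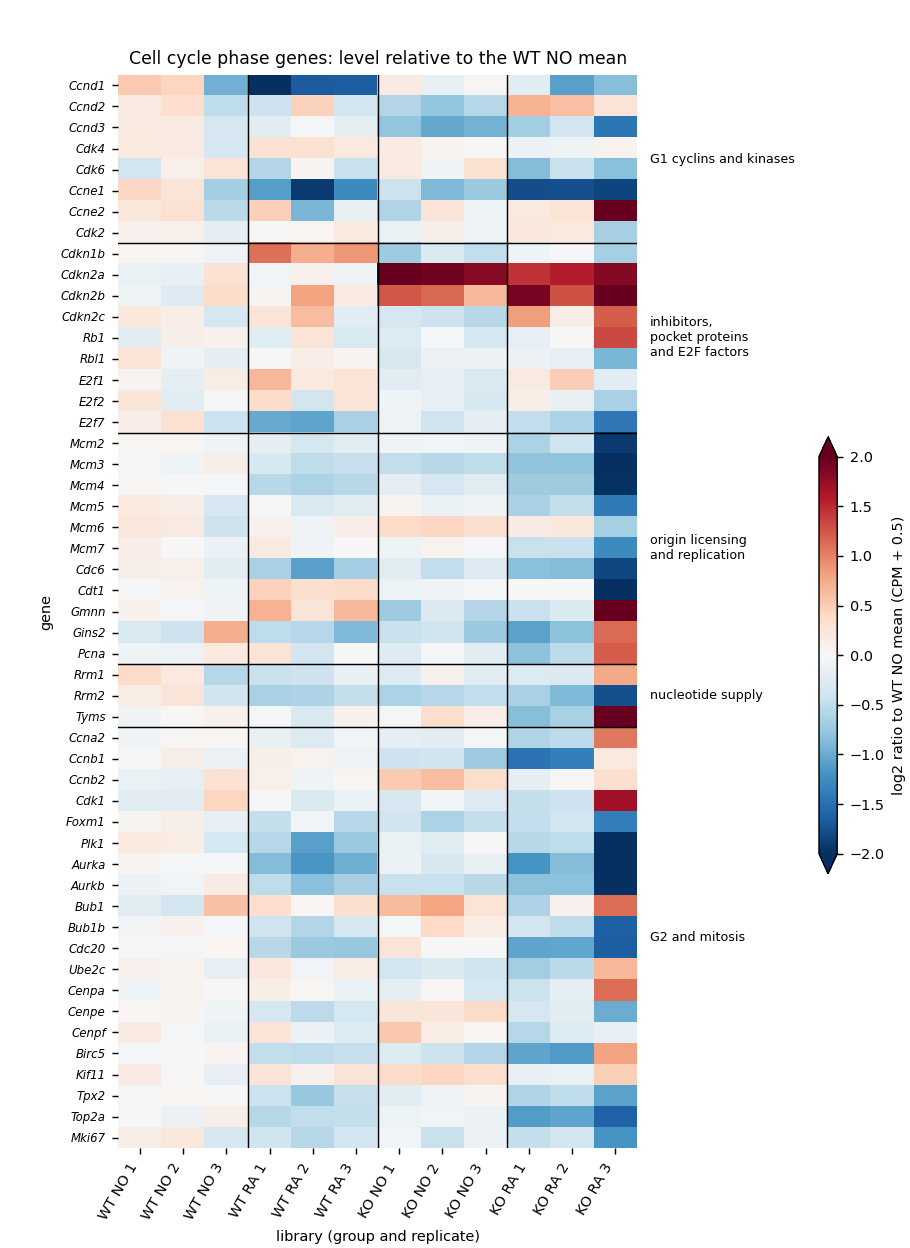
Log2 ratio of each member's CPM (plus 0.5) to the WT NO mean, in each of the 12 libraries, with genes grouped by role and colours that saturate at −2 and 2. Cdkn2a and Cdkn2b are above the WT NO mean in all KO libraries, most G2 and mitosis genes are lower in WT RA and in KO RA 1 and 2, and KO RA 3 departs from its group in both directions.

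Untreated KO cells were compared with untreated WT cells to ask which phase genes differ by genotype before induction. The CDK inhibitor gene Cdkn2a rose 3.85-fold in KO NO and was the only member called with all 12 libraries. Without KO RA 3, Cdkn2a and the spindle motor Kif11 rose, while Ccnd3, Mcm3, Gmnn, Rrm2, Ccnb1, Aurkb and Birc5 fell. Of the 51 members, 38 had a log2 fold change below 0, and the median was −0.17, against −0.02 over all genes tested. With all libraries, 1 member was called higher (0.788% of all genes tested) and 0 lower (0.351%). At an unadjusted edgeR p under 0.05 the counts were 3 higher (5.81% of all genes) and 4 lower (6.37%), DESeq2 on all libraries called 1 lower (2.43%), and limma-voom with sample weights 13 lower (10.8%). In the fit without KO RA 3, 2 members were higher (background 4.43%) and 7 lower (4.35%). In 6 members every KO NO library was above every WT NO library (background 15.5%) and in 15 every one was below (15.2%).

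After RA, KO cells differed from WT cells in the CDK inhibitors in both directions. Cdkn2a rose 3.13-fold in KO RA relative to WT RA, and Cdkn1b, which encodes p27, fell to a lower level than in any WT RA library. When KO RA 3 was left out, Cdkn2b also rose, and a further 9 members fell, with Ccnb1, the mitotic cyclin B1, showing the largest fold. The median log2 fold change of the members was −0.16 with all libraries and −0.21 without KO RA 3, against 0.09 and 0.01 over all genes tested. With all libraries, 1 member was called higher (0.885%) and 1 lower (0.358%). In the fit without KO RA 3, 2 were higher (4.42%) and 10 lower (5.44%). In 3 members every KO RA library was above every WT RA library (9.97%) and in 13 every one was below (10.9%).

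In WT cells, the question was which phase genes differ between untreated progenitors and cells taken 3 days after the start of RA. No member was called with all 12 libraries, higher (0.321%) or lower (0.0848%). At an unadjusted edgeR p under 0.05, 1 member was higher (6.76% of all genes) and 9 lower (5.79%). DESeq2 on all libraries called 1 higher (2.56%) and 8 lower (1.96%), and limma-voom 4 higher (10.8%) and 19 lower (10.8%). In the fit without KO RA 3, which is in neither of these groups, 3 members rose (Cdkn1b, Cdt1 and Gmnn, background 5.65%) and 16 fell (5.13%), led by the G1 cyclins Ccnd1 and Ccne1 and the mitotic kinase Aurka. The median log2 fold change was −0.16 over the members and −0.38 over the 20 G2 and mitosis genes, against −0.01 over all genes tested. In 5 members every WT RA library was above every WT NO library (15.1%) and in 19 every one was below (14%).

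In KO cells, RA was followed by a rise of Ccnd2 and by a fall of mitotic genes. With all 12 libraries, Ccnd2 and Cdkn2c rose (2 members, background 3.89%) and Cdc20, Top2a and Aurka fell (3 members, 1.59%). Without KO RA 3, Ccnd2 alone rose (1 member, 8.48%) and 18 members fell (7.54%), 12 of them among the 20 G2 and mitosis genes, of which 19 had a log2 fold change below 0. The median over those 20 was −0.44 with all libraries and −0.56 without KO RA 3, and over the 11 licensing and replication genes −0.65 and −0.44, against 0.11 and −0.02 over all genes tested. In 3 members every KO RA library was above every KO NO library (13.2%) and in 22 every one was below (17%).

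The responses of WT and KO cells to RA were set against each other without shared libraries. When KO RA 3 was left out, 16 members fell in WT and 18 in KO, and 9 fell in both (56.3% of the WT list and 50% of the KO list). Over all 17327 genes tested, 889 fell in WT and 1307 in KO, and 342 fell in both (1.97% of all genes, 38.5% of the WT list and 26.2% of the KO list). The 9 were Ccne1, Mcm4, Aurka, Bub1b, Cdc20, Cenpe, Birc5, Tpx2 and Top2a. Whether a gene fell in 1 genotype and not in the other does not show that the responses differ, which the interaction term tests. With all 12 libraries no member had a called interaction, higher (0%) or lower (0%), while an unadjusted edgeR p under 0.05 was reached by 4 higher (5.53% of all genes) and 0 lower members (3.09%). DESeq2 called 0 higher (0.994%) and 0 lower (0.443%), and limma-voom called 3 higher (3.56%) and 5 lower (2.41%). In the fit without KO RA 3, 0 members were called higher (0.802%) and 2 lower (0.537%), Ccnb1 and Kif11.

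RA comparisons of these bulk libraries also held shifts of cell type markers. The 8 neural progenitor markers summed to 531 to 723 CPM in WT RA and 781 to 929 in KO RA, where Vim alone made up 435 to 639 CPM. They did not move together, since Otx2 was at 82.0, 104 and 19.4 CPM in KO RA 1 to 3 against 106 to 135 in WT RA. With all libraries, Pax6 was called lower in KO NO against WT NO (log2 fold change −2.50, SE 0.45, edgeR adjusted p = 0.0264) and in KO RA against WT RA (−2.21, SE 0.44, edgeR adjusted p = 0.0396), while Fabp7 was called higher in KO RA against WT RA (3.89, SE 0.76, edgeR adjusted p = 0.0376), with 155 CPM in KO RA 3. The 10 neuron markers summed to 96.8 to 195 CPM in WT NO, 165 to 201 in WT RA, 142 to 152 in KO NO and 165 to 231 in KO RA. The 8 mesenchymal markers summed to 44.4 to 98.9 CPM in WT NO, 95.4 to 265 in WT RA, 47.2 to 49.6 in KO NO and 202 to 1047 in KO RA. The sum of 1047 CPM is that of KO RA 3, with Tagln at 763, and KO RA 1 and 2 summed to 359 and 202 CPM. In such samples fewer cycling cells and less RNA of these genes per cell cannot be told apart. With all libraries, 4 of 8 neural progenitor, 2 of 10 neuron and 4 of 8 mesenchymal markers rose in KO RA against KO NO (background 3.89%). In WT RA against WT NO, 2 of 8 mesenchymal markers rose (0.321%). Without KO RA 3, 5 neural progenitor, 3 neuron and 4 mesenchymal markers rose in KO RA against KO NO (8.48%). In that fit 1 neural progenitor marker fell there (7.54%). In the same fit, 3 neural progenitor, 2 neuron and 3 mesenchymal markers rose in WT RA against WT NO (5.65%), and 1 neuron marker fell (5.13%). The part of the marker shifts in the results on the phase genes was not tested.

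**Figure D4:**
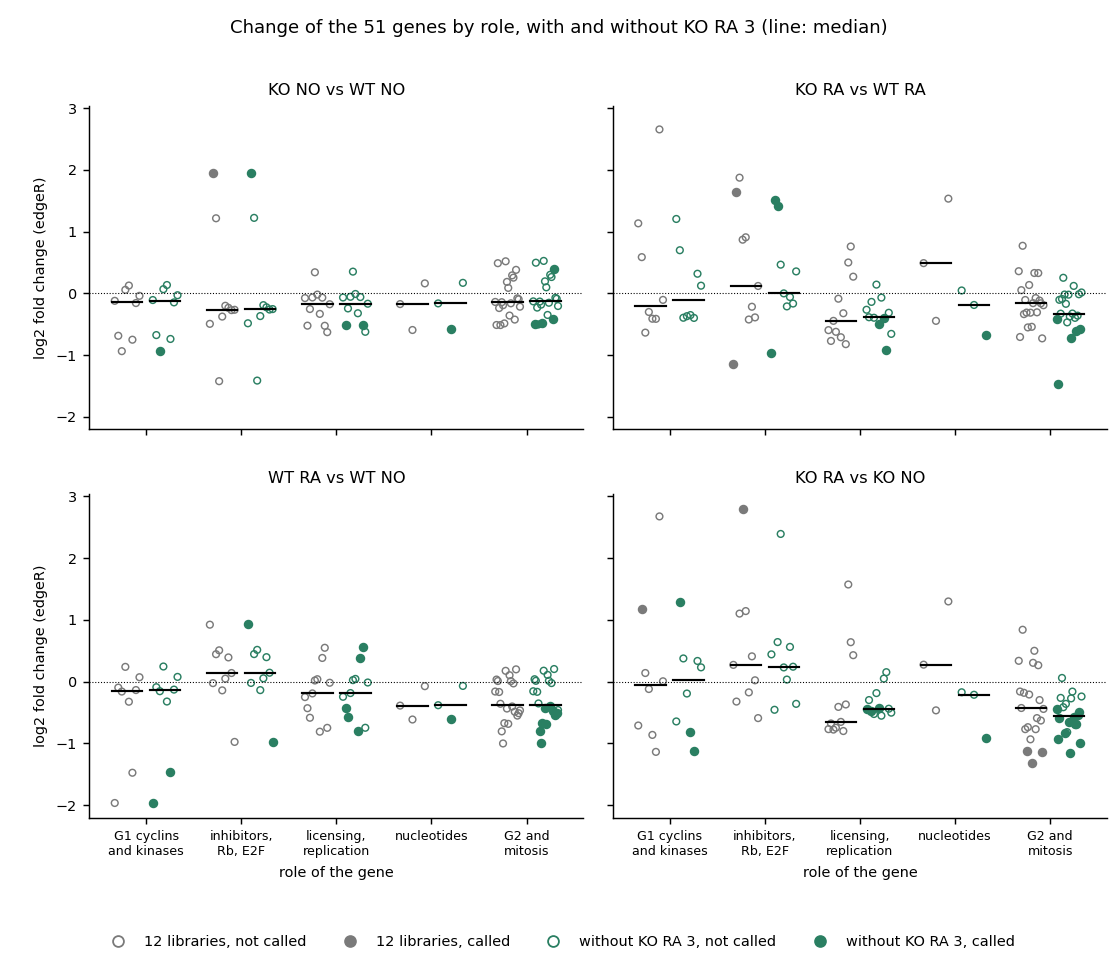
Log2 fold change of each member by role in the 4 comparisons, with all 12 libraries (grey) and without KO RA 3 (green), filled where the gene was called and with the median as a line. The medians of G2 and mitosis lie below 0 in every panel, from −0.13 in KO NO against WT NO to −0.56 in KO RA against KO NO without KO RA 3.

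Among the G1 cyclins, Ccnd1, which encodes cyclin D1 and links growth signals to CDK4 and CDK6, was at 38.3, 35.9 and 13.3 CPM in WT NO, 6.25, 8.002 and 8.12 in WT RA, 29.7, 23.8 and 26.9 in KO NO and 22.5, 12.1 and 14.5 in KO RA. All WT RA libraries were below all others, and WT NO 3 was far below the other WT NO libraries. The log2 fold change of Ccnd1 in WT RA against WT NO was −1.97 (SE 0.38, edgeR adjusted p = 0.0567) with all libraries and −1.96 (SE 0.36, edgeR adjusted p = 0.0107) without KO RA 3. In KO cells the log2 fold change was −0.71 (SE 0.37, edgeR adjusted p = 0.246), and the interaction term (log2) was 1.26 (SE 0.52, edgeR adjusted p = 0.54). With limma-voom it was 1.51 (adjusted p = 0.0351), the only 1 of 18 alternatives that called it. In KO RA against WT RA, Ccnd1 had a log2 fold change of 1.13 (SE 0.37, edgeR adjusted p = 0.168), with every KO RA library above every WT RA library.

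Ccnd2, the cyclin D2 gene that is prominent in neural progenitors, was at 84.5, 94.7 and 52.4 CPM in WT NO, 55.9, 104 and 57.04 in WT RA, 49.9, 43.4 and 50.5 in KO NO and 121, 114 and 89.8 in KO RA. All KO RA libraries were above all KO NO libraries, while WT NO and WT RA overlapped. Ccnd2 rose in KO RA against KO NO (log2 fold change 1.18, SE 0.30, edgeR adjusted p = 0.0465), and also without KO RA 3 (log2 fold change 1.28, SE 0.28, edgeR adjusted p = 0.0126), and it was called in 8 of 20 alternatives. In WT the log2 fold change was −0.10 (SE 0.30, edgeR adjusted p = 0.948), and the interaction term (log2) was 1.27 (SE 0.42, edgeR adjusted p = 0.441), with 1.72 by limma-voom (adjusted p = 0.0064), the only 1 of 18 alternatives that called it. The ratio of Ccnd1 to Ccnd2 CPM was 0.254 to 0.453 in WT NO and 0.533 to 0.595 in KO NO, and 0.0772 to 0.142 in WT RA and 0.106 to 0.186 in KO RA. In both genotypes the ratio was lower in every RA library than in any untreated one.

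Ccnd3, the cyclin D3 gene, was at 96.4, 94.8 and 67.3 CPM in WT NO, 73.6, 82.9 and 74.7 in WT RA, 49.6, 41.6 and 43.7 in KO NO and 52.3, 65.2 and 30.9 in KO RA. Every KO NO library was below every WT NO library and every KO RA library below every WT RA library. Ccnd3 in KO NO against WT NO had a log2 fold change of −0.94 (SE 0.27, edgeR adjusted p = 0.147), and it fell without KO RA 3 (log2 fold change −0.93, SE 0.15, edgeR adjusted p = 0.00619). Ccnd3 lies on chromosome 17 (chr17:47815767-47910624), where 84.8% of 794 tested genes had a log2 fold change below 0 in this comparison and the median was −0.47. The part of this chromosome-wide shift in the value of Ccnd3 was not tested.

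Of the E-type cyclins that activate CDK2, Ccne1 was at 94.2, 84.6 and 44.1 CPM in WT NO, 32.8, 18.4 and 28.9 in WT RA, 52.2, 38.1 and 42.1 in KO NO and 20.2, 20.4 and 19.4 in KO RA. Both RA groups were below their untreated groups without overlap, and WT NO 3 lay close to the KO NO values. Ccne1 had a log2 fold change of −1.48 (SE 0.31, edgeR adjusted p = 0.073) in WT RA against WT NO and −1.14 (SE 0.30, edgeR adjusted p = 0.0536) in KO RA against KO NO, and it fell in both without KO RA 3, with log2 fold changes of −1.47 (SE 0.28, edgeR adjusted p = 0.012) and −1.13 (SE 0.32, edgeR adjusted p = 0.0367). Ccne2 was at 39.4, 41.6 and 22.9 CPM in WT NO, 46.8, 17.5 and 30.2 in WT RA, 21.9, 39.9 and 31.3 in KO NO and 38.2, 40.6 and 517 in KO RA. Its value in KO RA 3 was more than 10 times that of the other 11 libraries, which overlapped across groups, and Ccne2 was called in no comparison. Of the G1 kinases, Cdk6 fell without KO RA 3 in KO RA against KO NO (log2 fold change −0.81, SE 0.25, edgeR adjusted p = 0.0481), and Cdk4 and Cdk2 were called in no comparison.

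**Figure D5:**
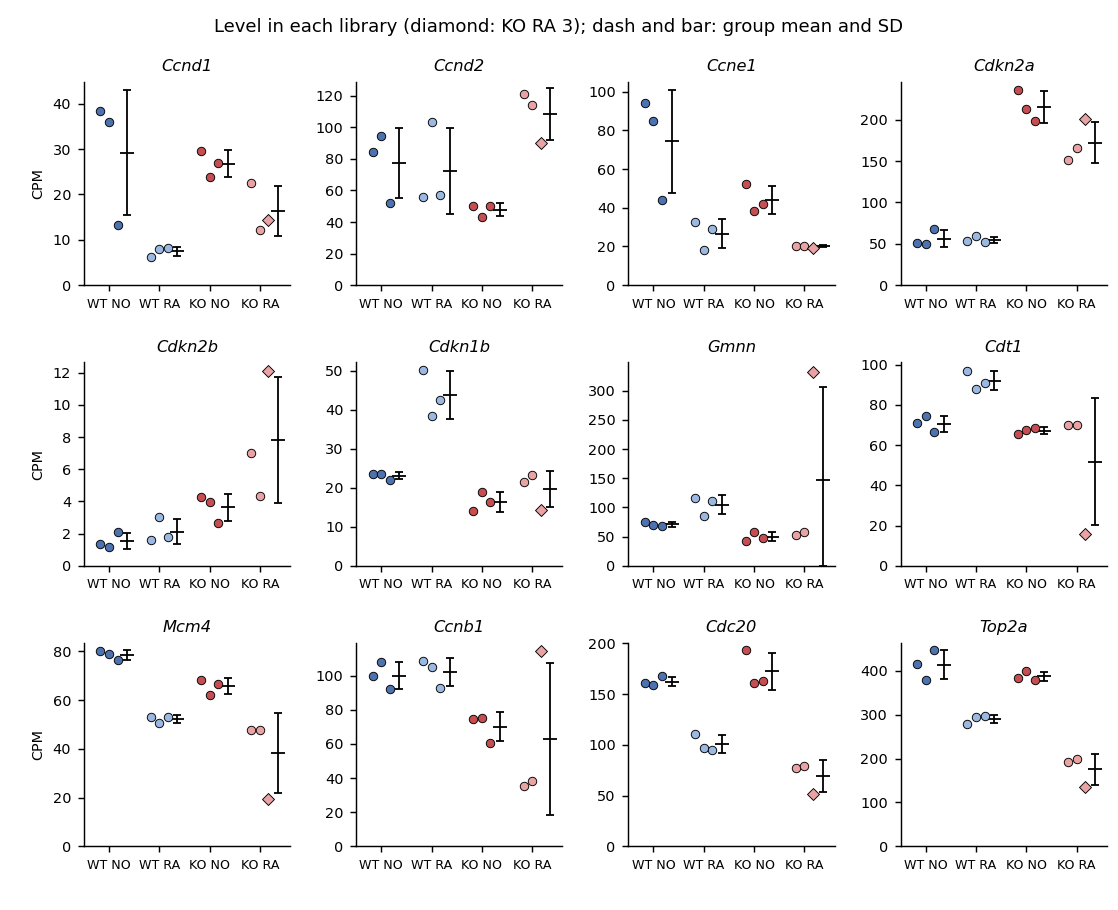
CPM of 12 members in each library by group, with KO RA 3 as a diamond and the group mean and SD beside the points (bars are cut at 0). Cdkn2a is between 152 and 236 CPM in KO libraries and between 49.8 and 68.1 in WT libraries, and Cdc20 and Top2a are lower in every RA library than in the untreated libraries of the same genotype.

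Cdkn2a, which encodes the CDK4 and CDK6 inhibitor p16 and, from another reading frame, the p53 activator ARF, was at 50.4, 49.8 and 68.1 CPM in WT NO, 53.7, 59.3 and 52.6 in WT RA, 236, 213 and 198 in KO NO and 152, 165 and 201 in KO RA. All 6 KO libraries were above all 6 WT libraries, and RA moved neither genotype by a called amount. Cdkn2a rose in KO NO against WT NO (log2 fold change 1.94, SE 0.22, edgeR adjusted p = 0.00293), and also without KO RA 3 (log2 fold change 1.95, SE 0.14, edgeR adjusted p = 7.84e-05). It rose in KO RA against WT RA (log2 fold change 1.64, SE 0.22, edgeR adjusted p = 0.00753), and also without KO RA 3 (log2 fold change 1.52, SE 0.15, edgeR adjusted p = 0.000678). It was called in all 20 alternative analyses of the first comparison and in 17 of the 20 of the second. The gene-level counts do not separate the p16 transcript from that of ARF. Cdkn2a lies at chr4:89192708-89212890, and among the 1036 tested genes of chromosome 4 the median log2 fold change was 0.09 in the untreated comparison of genotypes.

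Cdkn2b, the neighbouring gene on chromosome 4 (chr4:89223204-89229276) that encodes the inhibitor p15, was at 1.37, 1.18 and 2.11 CPM in WT NO, 1.59, 3.01 and 1.77 in WT RA, 4.25, 3.97 and 2.65 in KO NO and 7.04, 4.36 and 12.1 in KO RA. The KO libraries were above the WT libraries of the same treatment without overlap, at levels that were low throughout. Cdkn2b in KO NO against WT NO had a log2 fold change of 1.22 (SE 0.43, edgeR adjusted p = 0.253), and in KO RA against WT RA one of 1.87 (SE 0.43, edgeR adjusted p = 0.0635), and it rose in the latter without KO RA 3 (log2 fold change 1.42, SE 0.38, edgeR adjusted p = 0.0432). The ratio of Cdkn2b to Cdkn2a CPM was 0.0134 to 0.0186 in KO NO and 0.0238 to 0.0309 in WT NO.

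Cdkn2c, which encodes the inhibitor p18, was at 0.493, 0.444 and 0.183 CPM in WT NO, 0.529, 0.824 and 0.239 in WT RA, 0.176, 0.148 and 0.0838 in KO NO and 1.04, 0.443 and 1.49 in KO RA. KO RA was above KO NO without overlap, but the counts behind these values were 3 to 6 in KO NO. Cdkn2c rose in KO RA against KO NO (log2 fold change 2.80, SE 0.73, edgeR adjusted p = 0.0495), and without KO RA 3 its log2 fold change was 2.39 (SE 0.78, edgeR adjusted p = 0.0622). It was called in 6 of 19 alternative analyses.

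Cdkn1b, which encodes p27, an inhibitor of CDK2 complexes that is linked to cell cycle exit, was at 23.6, 23.5 and 22.03 CPM in WT NO, 50.3, 38.3 and 42.6 in WT RA, 13.9, 18.9 and 16.3 in KO NO and 21.6, 23.2 and 14.4 in KO RA. All WT RA libraries were above all others, and KO RA stayed in the range of the untreated groups. Cdkn1b had a log2 fold change of 0.92 (SE 0.22, edgeR adjusted p = 0.111) in WT RA against WT NO and rose without KO RA 3 (log2 fold change 0.93, SE 0.14, edgeR adjusted p = 0.00502). In KO RA against KO NO it had a log2 fold change of 0.27 (SE 0.22, edgeR adjusted p = 0.465), and 0.44 (SE 0.16, edgeR adjusted p = 0.0815) without KO RA 3. It fell in KO RA against WT RA (log2 fold change −1.15, SE 0.23, edgeR adjusted p = 0.0376), and also without KO RA 3 (log2 fold change −0.97, SE 0.16, edgeR adjusted p = 0.00686), and was called in 8 of 20 alternatives. The interaction term (log2) was −0.65 (SE 0.32, edgeR adjusted p = 0.602) with all libraries and −0.49 (SE 0.21, edgeR adjusted p = 0.247) without KO RA 3, and it was called in none of 18 alternatives.

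Of the E2F factors, the activator E2f1 was at 21.6, 18.1 and 23.01 CPM in WT NO, 33.2, 23.96 and 25.2 in WT RA, 17.8, 18.5 and 17.03 in KO NO and 23.5, 29.3 and 17.8 in KO RA. WT RA was above WT NO without overlap, and no comparison of E2f1 was called. E2f7, an atypical E2F that represses targets of E2F1, was at 14.2, 15.97 and 9.46 CPM in WT NO, 6.15, 5.92 and 8.03 in WT RA, 11.9, 9.66 and 11.3 in KO NO and 9.07, 8.14 and 4.46 in KO RA. All RA libraries were below the untreated libraries of the same genotype. E2f7 had a log2 fold change of −0.98 (SE 0.30, edgeR adjusted p = 0.205) in WT RA against WT NO, and it fell without KO RA 3 (log2 fold change −0.97, SE 0.21, edgeR adjusted p = 0.0179). Rb1, Rbl1 and E2f2 were called in no comparison, with or without KO RA 3.

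The MCM helicase genes, whose products are loaded on origins in G1, were represented by Mcm2 at 102, 101 and 92.99 CPM in WT NO, 86.7, 77.4 and 84.1 in WT RA, 92.5, 94.2 and 93.2 in KO NO and 63.3, 74.8 and 25.8 in KO RA. Both RA groups were below their untreated groups without overlap, by little in WT, and KO RA 3 was lowest. Mcm2 had a log2 fold change of −0.77 (SE 0.31, edgeR adjusted p = 0.164) in KO RA against KO NO, and it fell without KO RA 3 (log2 fold change −0.44, SE 0.11, edgeR adjusted p = 0.0216). In WT the log2 fold change was −0.25 (SE 0.31, edgeR adjusted p = 0.831). Mcm4 fell without KO RA 3 in both genotypes, with a log2 fold change of −0.58 (SE 0.09, edgeR adjusted p = 0.0046) in WT and −0.47 (SE 0.10, edgeR adjusted p = 0.00938) in KO. Mcm3 fell without KO RA 3 in KO NO against WT NO (log2 fold change −0.52, SE 0.10) and in WT RA against WT NO (−0.43, SE 0.10). Mcm7 fell without KO RA 3 in KO RA against WT RA (log2 fold change −0.49, SE 0.12) and against KO NO (−0.44, SE 0.12). Mcm5 and Mcm6 were called in no comparison.

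Cdc6 and Cdt1 encode the loaders that bring MCM helicases to origins, and geminin, the product of Gmnn, blocks CDT1 after S phase has begun. Cdc6 was at 44.4, 43.7 and 34.7 CPM in WT NO, 25.7, 18.9 and 25.3 in WT RA, 34.6, 28.8 and 34.03 in KO NO and 22.5, 22.1 and 11.1 in KO RA. All RA libraries were below the untreated libraries of the same genotype. Cdc6 had a log2 fold change of −0.81 (SE 0.27, edgeR adjusted p = 0.242) in WT RA against WT NO, and it fell without KO RA 3 (log2 fold change −0.81, SE 0.15, edgeR adjusted p = 0.0112). Cdt1 was at 70.9, 74.3 and 66.3 CPM in WT NO, 97.1, 87.7 and 91.1 in WT RA, 65.4, 67.4 and 68.7 in KO NO and 70.1, 69.8 and 15.6 in KO RA. The WT RA libraries were above all others, and KO RA 3 was far below every other library. Cdt1 rose without KO RA 3 in WT RA against WT NO (log2 fold change 0.39, SE 0.09, edgeR adjusted p = 0.023), and fell in KO RA against WT RA (log2 fold change −0.40, SE 0.10, edgeR adjusted p = 0.0329).

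Gmnn was at 75.9, 70.2 and 68.03 CPM in WT NO, 116, 85.6 and 112 in WT RA, 43.1, 57.9 and 47.6 in KO NO and 52.4, 58.5 and 332 in KO RA. Apart from KO RA 3, which was more than 2 times any other library, the WT RA libraries were the highest and all KO libraries were below all WT libraries. Without KO RA 3, Gmnn rose in WT RA against WT NO (log2 fold change 0.55, SE 0.14, edgeR adjusted p = 0.0358), and fell in KO NO against WT NO (log2 fold change −0.52, SE 0.14, edgeR adjusted p = 0.0497) and in KO RA against WT RA (log2 fold change −0.92, SE 0.16, edgeR adjusted p = 0.00934). With all 12 libraries the last value had a log2 fold change of 0.50 (SE 0.57, edgeR adjusted p = 0.689), with the opposite sign. Gmnn lies on chromosome 13 (chr13:24935812-24946084), where 76.7% of 648 tested genes were below 0 in KO NO against WT NO and the median was −0.36. The ratio of Gmnn to Cdt1 CPM was 0.944 to 1.07 in WT NO, 0.976 to 1.23 in WT RA, 0.660 to 0.860 in KO NO and 0.747 and 0.838 in KO RA 1 and 2, and it was 21.3 in KO RA 3. Outside KO RA 3, the ratio was lower in every KO library than in any WT library.

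Pcna, the sliding clamp of DNA polymerases, was at 272, 269 and 331 CPM in WT NO, 349.8, 221 and 289 in WT RA, 242, 281 and 248 in KO NO and 164, 201 and 672 in KO RA. KO RA 1 and 2 were the lowest and KO RA 3 the highest of the 12 libraries, and Pcna was called in no comparison. Gins2, a subunit of the replicative helicase, was at 35.7, 33.1 and 73.3 CPM in WT NO, 30.96, 29.8 and 23.8 in WT RA, 32.2, 33.3 and 26.3 in KO NO and 20.7, 24.7 and 98.02 in KO RA. WT NO 3 and KO RA 3 stood above the other libraries, and Gins2 was called in no comparison.

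Among the enzymes that supply nucleotides, Rrm2, the regulated subunit of ribonucleotide reductase, was at 87.4, 94.7 and 60.1 CPM in WT NO, 50.3, 51.4 and 56.6 in WT RA, 51.1, 53.2 and 56.1 in KO NO and 50.1, 42.8 and 22.99 in KO RA. All WT NO libraries were above all others. Rrm2 in KO NO against WT NO had a log2 fold change of −0.59 (SE 0.28, edgeR adjusted p = 0.429), and in WT RA against WT NO one of −0.61 (SE 0.28, edgeR adjusted p = 0.398), and fell in both without KO RA 3, with log2 fold changes of −0.58 (SE 0.15, edgeR adjusted p = 0.042) and −0.61 (SE 0.15, edgeR adjusted p = 0.0329). Tyms, which makes thymidylate, was at 78.8, 82.3 and 88.4 CPM in WT NO, 81.8, 67.2 and 88.1 in WT RA, 81.8, 106 and 91.5 in KO NO and 45.9, 53.01 and 588 in KO RA. KO RA 1 and 2 were the lowest libraries and KO RA 3 the highest by far. When KO RA 3 was left out, Tyms fell in KO RA against WT RA (log2 fold change −0.68, SE 0.15, edgeR adjusted p = 0.0218) and against KO NO (log2 fold change −0.92, SE 0.15, edgeR adjusted p = 0.00384). With all libraries these log2 fold changes were 1.53 (SE 0.77, edgeR adjusted p = 0.321) and 1.30 (SE 0.76, edgeR adjusted p = 0.304). Rrm1, the large subunit, was called in no comparison.

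Of the mitotic cyclins and their kinase, Ccnb1 was at 99.98, 108 and 92.1 CPM in WT NO, 109, 105 and 93.02 in WT RA, 74.4, 75.4 and 60.2 in KO NO and 35.5, 38.5 and 114 in KO RA. After TMM scaling, KO RA 1 and 2 were the lowest of the 12 libraries, far below the WT values, while KO RA 3 was the highest. In KO RA 1 to 3, Ccnb1 had 786, 1130 and 1153 counts, in library totals of 17370069, 23980362 and 25660576. Without TMM factors, the mean of Ccnb1 was 45.8 CPM in KO RA, 80.6 in KO NO, 94.8 in WT RA and 110 in WT NO. Which scaling is nearer the truth for KO RA 3 was not tested. Without KO RA 3, Ccnb1 fell in KO NO against WT NO (log2 fold change −0.50, SE 0.12, edgeR adjusted p = 0.0272), in KO RA against WT RA (log2 fold change −1.47, SE 0.14, edgeR adjusted p = 0.000504) and in KO RA against KO NO (log2 fold change −0.93, SE 0.14, edgeR adjusted p = 0.00204). With all libraries the corresponding log2 fold changes were −0.51 (SE 0.38, edgeR adjusted p = 0.703), −0.71 (SE 0.38, edgeR adjusted p = 0.352) and −0.16 (SE 0.38, edgeR adjusted p = 0.817). The interaction term (log2) without KO RA 3 was −0.97 (SE 0.18, edgeR adjusted p = 0.0344), and the RA comparison in WT gave a log2 fold change of 0.04 (SE 0.12, edgeR adjusted p = 0.876). Ccnb1 lies on chromosome 13 (chr13:100915153-100923116), like Gmnn. There, with all libraries, the median log2 fold change was −0.36 in KO NO against WT NO, with 76.7% of 648 tested genes below 0. In KO RA against WT RA that median was −0.15. The part of the chromosome 13 values in these results on Ccnb1 was not tested.

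Ccnb2, which encodes the other B-type cyclin of dividing cells, was at 70.8, 68.97 and 94.8 CPM in WT NO, 83.4, 72.9 and 79.9 in WT RA, 111, 119 and 99.2 in KO NO and 68.6, 78.4 and 97.8 in KO RA. The KO NO libraries were the highest, all above WT NO. Ccnb2 in KO NO against WT NO had a log2 fold change of 0.49 (SE 0.21, edgeR adjusted p = 0.386), and fell without KO RA 3 in KO RA against KO NO (log2 fold change −0.59, SE 0.16, edgeR adjusted p = 0.0313). The ratio of Ccnb1 to Ccnb2 CPM was 0.972 to 1.56 in WT NO and 1.16 to 1.44 in WT RA, and 0.607 to 0.671 in KO NO and 0.491 and 0.517 in KO RA 1 and 2, with 1.17 in KO RA 3. Every KO NO library and both of these KO RA libraries were below every WT library.

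Cdk1, the kinase of both cyclins, was at 244, 240.1 and 379 CPM in WT NO, 279, 229 and 261 in WT RA, 225, 271 and 235 in KO NO and 201, 208 and 902 in KO RA. The untreated and WT RA libraries overlapped, and KO RA 3 was more than 2 times any other library. Cdk1 was called in no comparison. Ccna2, the cyclin of S and G2 phases, fell without KO RA 3 in KO RA against WT RA (log2 fold change −0.41, SE 0.11, edgeR adjusted p = 0.0441) and against KO NO (log2 fold change −0.44, SE 0.11, edgeR adjusted p = 0.0248), and both values had the opposite sign with all libraries (0.36 and 0.34). Foxm1, a transcription factor of late cell cycle genes, was at 48.4, 50.5 and 41.7 CPM in WT NO, 33.5, 44.9 and 31.3 in WT RA, 35.2, 29.9 and 33.4 in KO NO and 33.00, 35.9 and 17.7 in KO RA. KO NO was below WT NO without overlap, and no comparison of Foxm1 was called.

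Among the mitotic kinases, Aurka, which matures the spindle poles, was at 118, 112 and 112 CPM in WT NO, 62.5, 50.3 and 57.9 in WT RA, 105, 91.1 and 103 in KO NO and 50.2, 62.5 and 24.6 in KO RA. Both RA groups were below their untreated groups without overlap, and KO RA 3 was the lowest library. Aurka fell in KO RA against KO NO (log2 fold change −1.12, SE 0.29, edgeR adjusted p = 0.0492), and also without KO RA 3 (log2 fold change −0.83, SE 0.14, edgeR adjusted p = 0.00367), and was called in 7 of 20 alternatives. In WT RA against WT NO it had a log2 fold change of −1.002 (SE 0.29, edgeR adjusted p = 0.183), and fell without KO RA 3 (log2 fold change −0.997, SE 0.12, edgeR adjusted p = 0.00226). The interaction term (log2) was −0.12 (SE 0.41, edgeR adjusted p = 0.94).

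Plk1, a kinase of mitotic entry, was at 142, 137 and 96.9 CPM in WT NO, 83.1, 57.95 and 74.1 in WT RA, 113, 105 and 123 in KO NO and 84.3, 87.2 and 27.9 in KO RA. Both RA groups were below their untreated groups. Plk1 had a log2 fold change of −0.81 (SE 0.37, edgeR adjusted p = 0.402) in WT RA against WT NO, and fell without KO RA 3 (log2 fold change −0.80, SE 0.17, edgeR adjusted p = 0.0163), and in KO the log2 fold change was −0.41 (SE 0.19, edgeR adjusted p = 0.16) without KO RA 3. Aurkb, the kinase of the chromosomal passenger complex, fell without KO RA 3 in KO NO against WT NO (log2 fold change −0.48, SE 0.12, edgeR adjusted p = 0.0311) and in WT RA against WT NO (log2 fold change −0.67, SE 0.12, edgeR adjusted p = 0.00839). Its partner Birc5 (survivin) fell without KO RA 3 in all 4 comparisons, with log2 fold changes from −0.42 in KO NO against WT NO to −0.69 in KO RA against KO NO, and the 2 comparisons with KO RA had the opposite sign with all libraries (0.33 against WT RA and 0.27 against KO NO).

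Of the genes of the anaphase-promoting complex, Cdc20, its mitotic activator, was at 161, 158 and 167 CPM in WT NO, 111, 96.7 and 95.2 in WT RA, 193, 161 and 163 in KO NO and 77.5, 78.7 and 51.4 in KO RA. All RA libraries were below all untreated libraries, and all KO RA libraries were below all WT RA libraries. Cdc20 fell in KO RA against KO NO (log2 fold change −1.32, SE 0.22, edgeR adjusted p = 0.00802), and also without KO RA 3 (log2 fold change −1.15, SE 0.12, edgeR adjusted p = 0.000506), and was called in 19 of 20 alternatives. In WT RA against WT NO it had a log2 fold change of −0.68 (SE 0.22, edgeR adjusted p = 0.222), and fell without KO RA 3 (log2 fold change −0.68, SE 0.11, edgeR adjusted p = 0.00556). In KO RA against WT RA it had a log2 fold change of −0.54 (SE 0.22, edgeR adjusted p = 0.238). Ube2c, the E2 enzyme of the complex, fell without KO RA 3 in KO RA against WT RA (log2 fold change −0.73, SE 0.13, edgeR adjusted p = 0.00827), and its log2 fold change was −0.16 with all libraries.

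Top2a was at 416, 380.2 and 447 CPM in WT NO, 279.7, 294 and 298 in WT RA, 384, 399 and 380.1 in KO NO and 191, 199.7 and 135 in KO RA. The RA groups were below the untreated groups and KO RA was below WT RA, each without overlap. Top2a fell in KO RA against KO NO (log2 fold change −1.14, SE 0.22, edgeR adjusted p = 0.015), and also without KO RA 3 (log2 fold change −0.998, SE 0.11, edgeR adjusted p = 0.000567), and was called in 16 of 20 alternatives. In WT RA against WT NO it had a log2 fold change of −0.51 (SE 0.22, edgeR adjusted p = 0.365), and fell without KO RA 3 (log2 fold change −0.51, SE 0.10, edgeR adjusted p = 0.0117). In KO RA against WT RA it had a log2 fold change of −0.73 (SE 0.22, edgeR adjusted p = 0.135), and fell without KO RA 3 (log2 fold change −0.58, SE 0.11, edgeR adjusted p = 0.0114).

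Mki67, the proliferation marker Ki-67, was at 70.7, 75.1 and 51.2 CPM in WT NO, 49.3, 43.7 and 49.6 in WT RA, 62.7, 47.5 and 59.4 in KO NO and 46.4, 49.9 and 28.2 in KO RA. WT RA was below WT NO without overlap, by a small margin to WT NO 3, and no comparison of Mki67 was called. Cenpa, the histone variant of centromeres, was at 106, 118 and 113 CPM in WT NO, 122, 115 and 102 in WT RA, 99.2, 114 and 87.9 in KO NO and 82.9, 97.6 and 245 in KO RA. Apart from KO RA 3, which was more than 2 times any other library after TMM scaling, the groups lay within 82.9 to 122 CPM. Without TMM factors, the mean of Cenpa was 107 CPM in KO RA, against 104 in WT RA and 115 in KO NO. Cenpa was called in no comparison.

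Kif11, the motor that pushes spindle poles apart, was at 60.3, 53.9 and 48.1 CPM in WT NO, 64.5, 57.1 and 64.6 in WT RA, 70.01, 72.4 and 68.7 in KO NO and 47.9, 49.03 and 74.7 in KO RA. KO NO was above WT NO without overlap. When KO RA 3 was left out, Kif11 rose in KO NO against WT NO (log2 fold change 0.39, SE 0.10, edgeR adjusted p = 0.0443) and fell in KO RA against KO NO (log2 fold change −0.55, SE 0.12, edgeR adjusted p = 0.012), while the change in WT was 0.20 (SE 0.10, edgeR adjusted p = 0.244). The interaction term (log2) without KO RA 3 was −0.75 (SE 0.16, edgeR adjusted p = 0.0489), and with all libraries it had a log2 fold change of −0.50 (SE 0.30, edgeR adjusted p = 0.657). The spindle and kinetochore genes Bub1b, Cenpe and Tpx2 fell without KO RA 3 in both RA comparisons, with log2 fold changes of −0.43, −0.40 and −0.55 in WT and of −0.65, −0.58 and −0.49 in KO. Cenpf fell without KO RA 3 in KO RA against KO NO (log2 fold change −0.69). Bub1 was at 53.1, 48.3 and 93.6 CPM in WT NO, 78.99, 63.8 and 77.3 in WT RA, 96.4, 108 and 75.05 in KO NO and 40.5, 65.7 and 136 in KO RA. Bub1 was called in no comparison.

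In all, 34 of the 51 members were called in at least 1 comparison with or without KO RA 3, against 31.3% of all genes tested, and 17 were called in none. The 17 include Cdk4, Cdk2, Pcna, Cdk1, Foxm1, Mki67 and Cenpa.

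Other cell cycle genes were described by 92 genes of 3 lists (G1 and restriction point, replication, G2 and mitosis), all of them tested. With all 12 libraries, 8 of the 92 fell in KO RA against KO NO (background 1.59%) and none rose (3.89%), and 0 were called in the other comparisons. The 4 with the smallest adjusted p were Ect2, a regulator of cytokinesis (log2 fold change −0.94, SE 0.20, edgeR adjusted p = 0.0208), the motor Kif2c (−0.86, SE 0.21, edgeR adjusted p = 0.0375), the cyclin Ccnf (−1.05, SE 0.26, edgeR adjusted p = 0.0423) and the polymerase Pole (−0.97, SE 0.25, edgeR adjusted p = 0.047). In the fit without KO RA 3, 2 rose (5.65%) and 13 fell (5.13%) in WT RA against WT NO, and 1 rose (8.48%) and 29 fell (7.54%) in KO RA against KO NO. The median log2 fold change of the 92 genes was then −0.23 in WT and −0.36 in KO, with 74 and 72 of 92 below 0. Between genotypes without KO RA 3, 2 rose (4.43%) and 9 fell (4.35%) in KO NO against WT NO, and 1 rose (4.42%) and 9 fell (5.44%) in KO RA against WT RA. Among these, Cdkn1c, which encodes the inhibitor p57, rose in both (log2 fold change 3.30 and 3.52, SE 0.87 and 0.91).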

How the data were processed

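Messenger RNA of 12 NE-4C libraries was sequenced as paired ends. The authors ran the nf-core RNA-Seq pipeline (STAR alignment, Salmon quantification, mouse genome GRCm39) and deposited estimated counts per gene, which their name calls scaled. They were read as corrected for transcript length from their values, which no source used here states. Whether counting used strand is not given in the sources used here. From the deposited estimated counts, rounded to whole numbers, 57010 genes were read and 16502 kept by edgeR's filterByExpr. The 12 libraries entered a single fit in edgeR 4.0.16 (TMM factors, robust quasi-likelihood test, 1 term for each group) in R 4.3.3. Genes with a Benjamini-Hochberg adjusted p under 0.05 over all genes tested were called. The fit was repeated without KO RA 3 (17327 genes tested) and with DESeq2 1.42.0, limma-voom with quality weights (limma 3.58.1), other filters and scalings, and each library left out. Scripts were tested on simulated data with less spread between libraries than these data and without an outlying library. That test does not cover the effect of KO RA 3. Per-library values were given for members called with all 12 libraries (at most the 20 with the smallest adjusted p), 20 fixed examples, and in each role the member with the largest change in each comparison. Those of Ccnb2 and Kif11 were given as well. The members, the other cell cycle lists and the markers were chosen with earlier results of these data known. Promoters and coordinates are from GRCm39 with GENCODE annotation. Libraries held 17370069 to 30738717 counts, and low counts limit mainly Cdkn2c, Rb1 and E2f2. On the reading as corrected for transcript length, these counts are not numbers of reads.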

Additional observations from a re-analysis of the deposited data

Results flagged for a closer look

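The RA response of Ccnb1, which encodes cyclin B1, differed between genotypes in the fit without KO RA 3. The interaction term (KO minus WT, log2) was −0.97 (SE 0.18, edgeR adjusted p = 0.0344). Ccnb1 stood between 93.0 and 109 CPM in WT RA, within or next to the WT NO range of 92.1 to 108, while KO RA 1 and 2 stood at 35.5 and 38.5, below the KO NO range of 60.2 to 75.4. KO RA 3 stood at 114 CPM after TMM scaling. Without TMM factors, the mean of Ccnb1 was 45.8 CPM in KO RA, against 80.6 in KO NO and 94.8 in WT RA. With all 12 libraries the difference was not called by edgeR. It was called by limma-voom (adjusted p = 0.0296), whose weight per library can count an outlying library less.

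The RA response of Kif11, a spindle motor, also differed between genotypes in the fit without KO RA 3, with an interaction term (log2) of −0.75 (SE 0.16, edgeR adjusted p = 0.0489). Kif11 was at 57.1 to 64.6 CPM in WT RA against 48.1 to 60.3 in WT NO, and at 47.9 and 49.0 in KO RA 1 and 2 against 68.7 to 72.4 in KO NO. KO RA 3 was at 74.7 CPM after TMM scaling. Without TMM factors, the mean of Kif11 was 50.2 CPM in KO RA, against 81.1 in KO NO and 57.2 in WT RA. With all 12 libraries the difference was not called by edgeR. It was called by limma-voom with the same weights (adjusted p = 0.0224).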

How the results depend on the processing

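The counts of called members moved with the test, the samples in the fit and KO RA 3, and the cause was not tested. Shares of all genes called under the same setting stand in parentheses. In KO NO against WT NO, members called higher were 3 with DESeq2 on the groups compared (5.59%) and 5 with limma-voom (10.9%). Members called lower there were 1 with DESeq2 on all libraries (2.43%), 1 with edgeR on the groups compared (2.05%), 9 with DESeq2 on them (5.08%) and 13 with limma-voom (10.8%). In KO RA against WT RA, members called higher were 3 with DESeq2 on all libraries (4.67%), 0 with edgeR on the groups compared (0.108%), 2 with DESeq2 on them (2.82%) and 4 with limma-voom (9.79%). Members called lower there were 4 with DESeq2 on all libraries (2.53%), 0 with edgeR on the groups compared (0%), 2 with DESeq2 on them (1.01%), 15 with limma-voom (8.31%) and 0 without a filter (0.107%). In WT RA against WT NO, members called higher were 1 with DESeq2 on all libraries (2.56%), 1 with edgeR on the groups compared (2.15%), 2 with DESeq2 on them (5.73%) and 4 with limma-voom (10.8%). Members called lower there were 8 with DESeq2 on all libraries (1.96%), 6 with edgeR on the groups compared (1.56%), 15 with DESeq2 on them (4.97%) and 19 with limma-voom (10.8%). In KO RA against KO NO, members called higher were 0 with edgeR on the groups compared (1.16%), 0 without a filter (1.54%), 1 with at least 10 counts in every library (4.1%) and 5 with limma-voom (15.1%). Members called lower there were 12 with DESeq2 on all libraries (5.18%), 0 with edgeR on the groups compared (0.118%), 5 with DESeq2 on them (2.47%) and 23 with limma-voom (12.3%). For the interaction, limma-voom called 3 higher (3.56%) and 5 lower (2.41%). With a library left out, members called higher were 1 to 2 in KO NO against WT NO (0.202% to 4.43% of all genes), 0 to 2 in KO RA against WT RA (0.109% to 4.42%), 0 to 3 in WT RA against WT NO (0% to 5.65%) and 0 to 2 in KO RA against KO NO (0.879% to 8.48%). Members called lower were then 0 to 7 (0.0231% to 4.35%), 0 to 10 (0% to 5.44%), 0 to 16 (0% to 5.13%) and 1 to 18 (0.243% to 7.54%) in the same order of comparisons, and 0 to 2 for the interaction (0% to 0.537%). The highest shares were without KO RA 3.

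KO RA 3, with its TMM factor of 0.394, decided the sign of several log2 fold changes that involve KO RA. Without TMM factors, the means in KO RA and WT RA were 89.7 and 95.7 CPM for Gmnn and 118 and 72.6 for Tyms. They were 89.4 and 88.2 for Ccna2, 121 and 130 for Birc5, 244 and 322 for Ube2c and 45.8 and 94.8 for Ccnb1. The part of the scaling in the changes of sign was not tested. Between the RA-treated genotypes, values changed sign with limma-voom to −0.91 for Gmnn, −0.65 for Tyms, −0.40 for Ccna2 and −0.59 for Birc5, and with a library left out it ranged from −0.92 (without KO RA 3) to 0.99 for Gmnn, from −0.68 to 2.11 for Tyms, from −0.41 to 0.71 for Ccna2, from −0.62 to 0.72 for Birc5 and from −0.73 to 0.15 for Ube2c. For the RA response of KO cells, values changed sign with limma-voom to −0.85 for Tyms, −0.41 for Ccna2 and −0.62 for Birc5, and with a library left out it ranged from −0.92 to 1.88 for Tyms, from −0.44 to 0.69 for Ccna2, from −0.69 to 0.66 for Birc5 and from −0.93 to 0.20 for Ccnb1. The interaction term of Ccnb1 ranged from −0.97 to 0.16. The values were repeated over 62 pairs of a gene and a comparison, of which 8 were called with all 12 libraries. Of the repeated values, 1001 kept their direction and side of the threshold, 156 became called, 58 lost the call and 20 changed sign. Lost calls can come only from those 8 pairs, and a pair not called that stayed so counts as kept.

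Replicate numbers did not pair the samples, since deviations of same-numbered libraries correlated at −0.167 to 0.038. With the replicate number as a block, 0 members were called lower in KO RA against WT RA (0.0606% of all genes) and 0 higher in KO RA against KO NO (2.08%). Of 204 group means of the members, 79 moved by more than 1 SD without TMM factors.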
